A study of Mus musculus with 12 samples.

Results

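Imprinted genes are transcribed mainly from the chromosome inherited from a single parent. In most cases DNA methylation laid down differently in egg and sperm tells the copies apart. Many imprinted genes lie in clusters steered by imprinting control regions. Many regulate fetal growth, the placenta and metabolism, with the insulin-like growth factor gene Igf2 and its clearance receptor gene Igf2r as the classic opposed pair. In the mouse liver several fetal imprinted genes, among them Igf2, H19 and Dlk1, are shut down after birth. A list of 49 imprinted genes was followed by gene symbol on liver arrays, each through the brightest probe set annotated with that symbol. Of the 49 genes, 47 had a probe set among 30148 genes measured, and Slc22a3 and Zrsr1 had no listed probe set and were not analysed here.

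The arrays compared F2 grandsons of obese Avy/a females, F3 great-grandsons of such females, and control males with lean control parents, with 4 arrays per group and 12 in all. Avy, known as viable yellow, is an agouti allele that leads to obesity, and Avy/a was the genotype of the founding females. All males sampled were labelled C57BL/6 and were 12 weeks old. The labels gave neither the males' own agouti genotype nor the generation of the controls, nor whether the replicates came from different animals. P-values here therefore describe only the scatter of these samples, which may be technical. The comparisons ask whether obesity of a female ancestor leaves a trace in liver expression of later generations, and the marks of imprinted genes are erased and set anew in the germ line of each generation. The arrays summed RNA from both alleles, so they measured levels and not the parental origin of a transcript.

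The samples looked like liver. All 6 hepatocyte markers lay above the 95th percentile of the negative controls, from Hnf4a at a mean log2 value of 9.82 to Alb at 13.31. So did 7 of 8 sinusoidal endothelial markers (Pecam1 6.61 to Ptprb 8.77), 6 of 8 Kupffer cell markers (Marco 6.49 to Cd5l 8.92) and 1 of 2 erythroid markers (Hemgn 4.42, Alas2 8.85), but 0 of 5 cholangiocyte (Epcam 4.51 to Sox9 6.99), 0 of 5 lymphocyte (Ms4a1 3.21 to Cd3e 5.64), 0 of 3 adipocyte (Adipoq 2.87 to Plin1 5.32) and 0 of 3 pancreatic acinar markers (Cpa1 4.72 to Cela2a 5.41). Limma called none of the markers tested in any comparison. The arrays also split into a higher set of 7 and a lower set of 5 by the mean level of 337 small nucleolar RNA genes (6.33 or more, against 6.03 or less), a split found in the data and present in every group. Of the 38 imprinted genes tested, 2 did not overlap between these sets, Cdkn1c and H13, against 5.71% of all genes tested. Both were lower in the higher set, Cdkn1c by 0.15 and H13 by 0.32 on the log2 scale. Of all 47 measured, 15 had a higher mean in the higher set, and the same share over all genes is not given here.

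Imprinted genes sat near the negative controls about as often as other genes. The 5222 negative control probe sets had a median log2 value of 4.24, a 90th percentile of 6.38 and a 95th percentile of 7.05. Of the 47, 7 imprinted genes had a mean above the 95th percentile, 5 lay between the 90th and the 95th, 27 between the median and the 90th, and 8 under the median. The 35 under the 90th percentile made up 74.5% of the 47, against 71.3% of the 30101 other genes measured. Probe sets differ in how strongly they bind, so these positions sort genes by distance from background and give no order of transcript abundance.

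**Figure D1:**
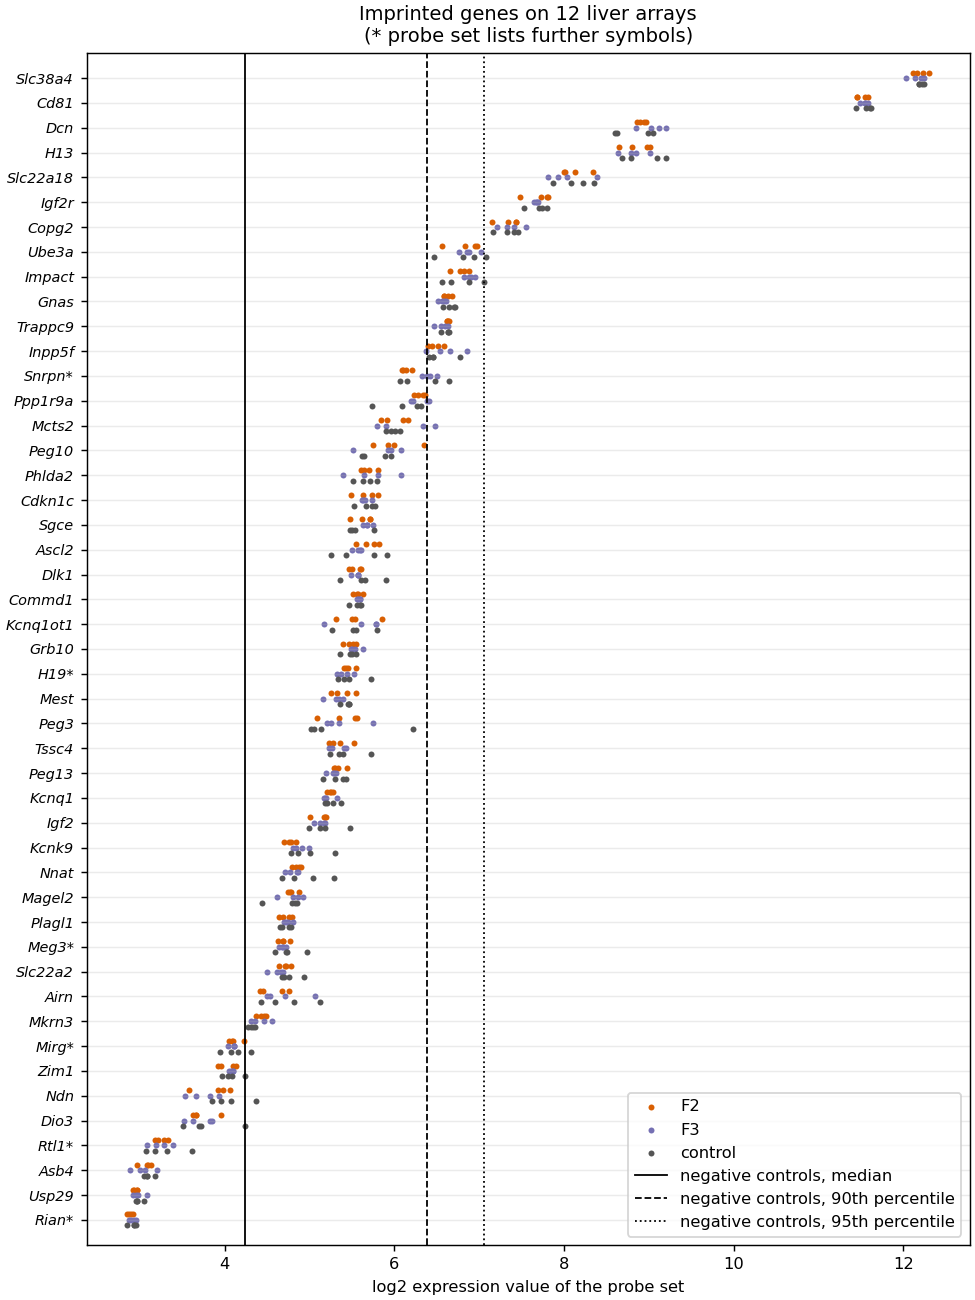
Log2 value (horizontal axis) of the probe sets of 47 imprinted genes (rows), with 1 point per array, coloured as F2, F3 or control (4 arrays each). Vertical lines mark the median (4.24), 90th percentile (6.38) and 95th percentile (7.05) of the negative control probe sets, and 7 genes have means to the right of the last line.

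The amino acid transporter gene Slc38a4, usually expressed from the paternal allele, had the brightest probe set of the 47, between 12.03 and 12.31 on all arrays. It had log2 values of 12.23, 12.11, 12.31 and 12.16 in F2 males, 12.25, 12.20, 12.03 and 12.14 in F3 males, and 12.22, 12.19, 12.19 and 12.24 in controls. The groups overlapped throughout, and its difference was −0.007 (SE 0.063) for F2 minus control and −0.06 (SE 0.063) for F3 minus control. RefSeq lists 3 start sites for this gene, each with 5 CG pairs in the window of 300 bases from 250 before to 50 after the start, against a median of 7 over 32851 such windows of all genes. The window of the outermost start (GRCm38.p6, chr15:97055907-97056206, minus strand) is shown with its CG pairs in capitals, as the promoter of the clearest signal in the list.
Slc38a4 promoter: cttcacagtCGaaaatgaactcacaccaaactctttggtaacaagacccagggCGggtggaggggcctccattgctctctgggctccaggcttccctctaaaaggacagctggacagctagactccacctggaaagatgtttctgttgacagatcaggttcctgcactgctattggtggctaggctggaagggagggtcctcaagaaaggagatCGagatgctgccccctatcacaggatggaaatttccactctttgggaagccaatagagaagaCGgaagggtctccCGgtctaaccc

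In the cluster controlled by Kcnq1ot1, a paternally expressed long RNA that silences its neighbours, only Cd81 and Slc22a18 of 8 measured genes lay above the 95th percentile of the negative controls. Cd81, which encodes a tetraspanin of the cell membrane, had values of 11.55, 11.46, 11.59 and 11.45 in F2 males, 11.55, 11.55, 11.49 and 11.59 in F3 males, and 11.56, 11.61, 11.62 and 11.45 in controls. Slc22a18, a transporter-like gene, ranged from 7.81 to 8.38 over the 12 arrays with overlap of all groups. Kcnq1ot1 itself averaged 5.55, the cell cycle inhibitor gene Cdkn1c 5.66, the placental growth regulator gene Phlda2 5.69, the placental transcription factor gene Ascl2 5.62, the potassium channel gene Kcnq1 5.24 and Tssc4 5.37. These 6 means stood between the 72.7th and the 80.9th percentile of the negative controls. Differences from control in this cluster lay between −0.08 and 0.11 in F2 males and between −0.10 and 0.07 in F3 males.

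Of the growth pair, Igf2r lay above the 95th percentile of the negative controls and Igf2 did not. Igf2r, the maternally expressed receptor gene that removes IGF2, had values of 7.82, 7.48, 7.73 and 7.80 in F2 males, 7.69, 7.68, 7.67 and 7.65 in F3 males, and 7.71, 7.80, 7.53 and 7.74 in controls. The lowest array was F2 replicate 2 and the next lowest control replicate 3, and the F3 arrays lay inside the range of the other groups. Its difference was 0.01 (95% interval −0.17 to 0.19) for F2 minus control and −0.02 (95% interval −0.20 to 0.15) for F3 minus control. Airn, the paternally expressed RNA that runs antisense through Igf2r, averaged 4.67, and the cation transporter gene Slc22a2 averaged 4.70, both within the negative control range. Whether the probe sets separate overlapping genes by strand is not given in the sources used here, which also bears on Kcnq1 with Kcnq1ot1, Mcts2 with H13, Peg13 with Trappc9 and Mest with Copg2.

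Igf2 and H19, which share enhancers and are expressed from opposite alleles, were both near background. Igf2 had values of 5.20, 5.18, 5.16 and 5.004 in F2 males, 5.12, 5.17, 5.05 and 5.18 in F3 males, and 5.12, 4.99, 5.47 and 5.18 in controls. The H19 probe set had values of 5.41, 5.55, 5.46 and 5.43 in F2 males, 5.36, 5.43, 5.52 and 5.33 in F3 males, and 5.41, 5.33, 5.72 and 5.47 in controls. Control replicate 3 was the highest and control replicate 2 the lowest array for Igf2, and control replicate 3 was also the highest for H19, where F3 replicate 4 and control replicate 2 were the lowest. The difference for F3 minus control was −0.06 (SE 0.091) for Igf2 and −0.07 (SE 0.082) for the H19 probe set.

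The H19 probe set is also annotated with Mir675, the microRNA gene inside H19, and 6 of the 47 probe sets carried several symbols in this way. The others were those of Meg3 (with Mir770 and Mir1906), Rian, Mirg, Rtl1 and Snrpn (with Snurf). MicroRNAs pair with target messages mainly through the seed, bases 2 to 8. The mature RNAs of Mir675 and Mir770, which share a probe set with H19 and Meg3, are shown with the seed in capitals (RefSeq, GRCm38.p6, on chromosome 7 for Mir675 and chromosome 12 for Mir770). The 4 seeds differ from each other.
mmu-miR-675-5p: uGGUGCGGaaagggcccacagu
mmu-miR-675-3p: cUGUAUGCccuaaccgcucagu
mmu-miR-770-5p: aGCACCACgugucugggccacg
mmu-miR-770-3p: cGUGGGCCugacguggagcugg

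The Dlk1-Meg3-Dio3 cluster was dim in all 6 genes. Dlk1, which encodes a fetal Notch-like ligand, averaged 5.57, and the Meg3 probe set, whose maternal RNA is the cluster's long transcript, averaged 4.71. Rian at 2.90, Rtl1 at 3.26, the thyroid hormone deiodinase gene Dio3 at 3.74 and Mirg at 4.11 all lay under the negative control median and were not tested. Of the other clusters, Usp29 averaged 2.97, Asb4 3.07, Ndn 3.89 and Zim1 4.06, also under that median, and Mkrn3 averaged 4.39, just above it. Genes were tested where their mean exceeded 4.55, the median of all probe sets. Airn and Slc22a2 were the nearest above it, and Mkrn3 and Mirg the nearest below. Of the 47, 38 passed this filter.

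H13, a maternally expressed gene for a signal peptide peptidase, averaged 8.87, and Mcts2, a paternally expressed copy gene within H13, averaged 6.04. H13 had values of 8.80, 8.98, 9.01 and 8.65 in F2 males, 8.79, 8.64, 8.85 and 9.01 in F3 males, and 9.21, 8.68, 9.09 and 8.79 in controls. Its spread followed the array sets described above, with the 5 arrays of the lower set at 8.98 or more. Mcts2 derives from Mcts1, so its probe set may also read that gene. The coat protein gene Copg2 averaged 7.35 and its neighbour Mest, a paternally expressed fetal growth gene, 5.38.

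Between the 90th and 95th percentile of the negative controls lay Inpp5f, a phosphoinositide phosphatase gene (6.54), Trappc9, a vesicle trafficking gene (6.60), Gnas, which encodes the stimulatory G protein alpha subunit (6.62), Impact, a regulator of translation under stress (6.82), and Ube3a, a ubiquitin ligase gene (6.84). Ube3a is known to be imprinted in neurons and Trappc9 in the brain, and for no gene listed was imprinting in these livers measured. Nearer to background, the neurabin gene Ppp1r9a averaged 6.23, the probe set of the splicing protein gene Snrpn 6.29, the retrotransposon-derived Peg10 5.88, the sarcoglycan gene Sgce 5.63, the copper homeostasis gene Commd1 5.57 and the insulin receptor adaptor gene Grb10 5.49. The zinc finger gene Peg3 averaged 5.37, the long RNA Peg13 5.31, the potassium channel gene Kcnk9 4.88, the proteolipid gene Nnat 4.87, Magel2 4.77 and the zinc finger gene Plagl1 4.73.

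No imprinted gene passed the test in any comparison of groups, which does not show that the groups were alike. In F2 males against controls, 17 of 38 imprinted genes tested were above control (44.7%), against 43.3% of all 18728 genes tested, and their median log2 difference was −0.008, against −0.01 over all genes. The limma fit called 0 of 38 (lowest adjusted p 0.9999, Benjamini-Hochberg over all genes), where 0 of 18728 genes were called (0%). Kcnk9 was the single imprinted gene with an unadjusted p under 0.05 (2.63%), with a difference below 0, against 172 of all genes (0.918%, of which 0.342% higher and 0.577% lower). None of the 38 had F2 and control arrays without overlap, against 0.705% of all genes (0.304% higher and 0.4% lower). Mkrn3, not tested and near the negative control median, had F2 values of 4.36 to 4.49 above control values of 4.27 to 4.35. Without the filter it was the 1 imprinted gene without overlap, against 1.11% of all genes. The 95% intervals stayed inside a 1.5-fold difference either way for 38 of 38 imprinted genes and for 95.2% of all genes, which bounds probe set values and, for the dim genes, not transcript levels.

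Differences above 0.2 in size were seen for 4 imprinted genes in F2 males (10.5%, against 3.5% of all genes). There were 2 in F3 males against control (5.26%, against 6.73%) and 1 between F3 and F2 males (2.63%, against 6.58%). The 4 in F2 males were Kcnk9, Peg10, Ppp1r9a and Snrpn, with means between the 64.8th and the 88.9th percentile of the negative controls. Kcnk9 had values of 4.83, 4.76, 4.78 and 4.69 in F2 males and 4.78, 4.86, 5.30 and 5.01 in controls, a difference of −0.22 (SE 0.098). Only control replicate 1 fell inside the F2 range, and the difference was −0.11 without control replicate 3. After quantile normalization or centring on array medians, the Kcnk9 groups no longer overlapped, against 0.662% and 0.481% of all genes under these settings.

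Peg10 had values of 5.93, 6.34, 5.75 and 5.99 in F2 males and 5.89, 5.96, 5.64 and 5.61 in controls, a difference of 0.23 (SE 0.14). F2 replicate 2 stood highest, and without it the difference was 0.11. Ppp1r9a, its neighbour, had values of 6.23, 6.36, 6.28 and 6.33 in F2 males and 6.26, 5.74, 6.08 and 6.31 in controls, a difference of 0.20 (SE 0.11) that was 0.08 without the low control replicate 2. The remaining large difference, −0.20 (SE 0.11), was that of Snrpn, and it was −0.10 without control replicate 4.

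Among the other genes of lowest p in this comparison, Airn differed by −0.16 (SE 0.16), Dlk1 by −0.09 (SE 0.094), Nnat by −0.10 (SE 0.11) and Dcn by 0.10 (SE 0.11). Leaving out 1 control array brought each nearer to 0. Without control replicate 3, Dlk1 was at −0.00078, Nnat at 0.008 and Dcn at 0.03, and without control replicate 2 Airn was at −0.04. In the higher and the lower array set, Airn was at −0.25 and −0.08, Dlk1 at −0.03 and −0.16, and Nnat at 0.07 and −0.27.

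**Figure D2:**
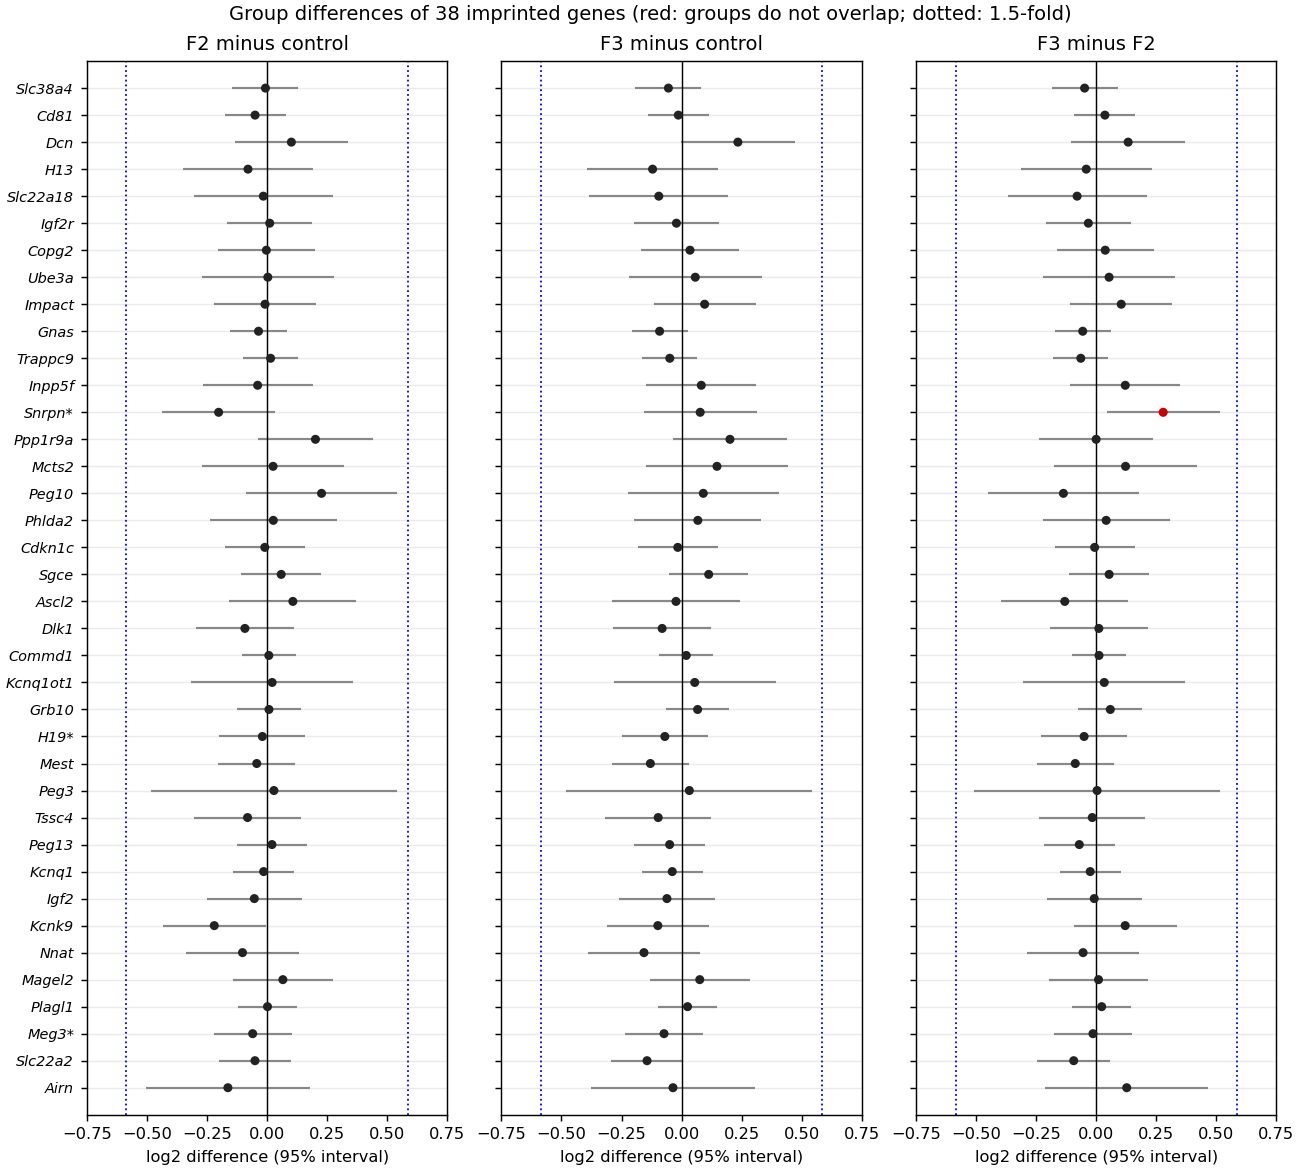
Log2 differences (points) with 95% intervals (bars, limma) of the 38 imprinted genes tested, for F2 minus control, F3 minus control and F3 minus F2, with dotted lines at a 1.5-fold difference. Every interval lies inside the dotted lines, and the red point, Snrpn in F3 minus F2, is the single gene whose arrays did not overlap between groups.

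In F3 males against controls, 17 of 38 imprinted genes were again above control (44.7%, against 45.3% of all genes), with a median of −0.02, against −0.01 over all genes. F2 and F3 were compared with the same 4 control arrays, so both comparisons share any peculiarity of these. Limma called 0 of 38 (lowest adjusted p 0.9998), where 0 of 18728 genes were called (0%). No imprinted gene reached an unadjusted p under 0.05, against 548 of all genes (2.93%, of which 1.64% higher and 1.28% lower), and none had arrays without overlap, against 1.63% of all genes (0.726% higher and 0.902% lower). All 38 intervals again lay within 1.5-fold, as did 94.1% over all genes.

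Dcn, which encodes the matrix proteoglycan decorin and is known as a product of stellate cells and fibroblasts, had the largest difference of the imprinted genes in F3 males. Its values were 9.21, 9.11, 9.03 and 8.85 in F3 males and 8.98, 9.05, 8.60 and 8.63 in controls. The F3 arrays were higher on the whole but overlapped the upper pair of controls, with a difference of 0.23 (SE 0.11, 95% interval −0.002 to 0.47). It was 0.16 without control replicate 3, 0.28 in the higher array set and 0.05 in the lower set, which holds 1 F3 array. Of 10 stellate cell and fibroblast markers tested, 8 lay above control in F3 males, with a median of 0.10, against −0.01 over all genes. None was called. Lum, with its probe set at the 75th percentile of the negative controls, alone had an unadjusted p under 0.05 by limma (0.26, SE 0.12). In F2 males, where Dcn was at 0.10, 3 of the 10 lay above control (median −0.03, against −0.01 over all genes). From F2 to F3 males, 9 of the 10 markers were higher (median 0.11, against 0.003 over all genes). Their summed linear level ranged from 1148 to 1209 in F3 males, from 1009 to 1106 in F2 males and from 979 to 1177 in controls, 3 of the 10 lay above the 95th percentile of the negative controls, and the brightest was Reln at 7.87 and the dimmest Des at 5.25. In bulk tissue more cells of a type and more RNA per cell cannot be told apart, and the part of these cells in the Dcn difference was not tested.

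Ppp1r9a differed by 0.20 in F3 males (SE 0.11), the size seen in F2 males against the same controls. Its F3 values of 6.41, 6.38, 6.19 and 6.22 lay above control replicates 2 and 3, and the difference was 0.08 without control replicate 2. Slc22a2 differed by −0.14 (SE 0.069) and was −0.09 without control replicate 3. After quantile normalization or centring on array medians its F3 arrays lay below all controls, against 1.76% and 0.897% of all genes without overlap. In the higher array set the Slc22a2 difference was −0.03 and in the lower set −0.34. Nnat differed by −0.16 (SE 0.11) and was −0.05 without control replicate 3. Mest was at −0.13 (SE 0.074, and −0.08 without F3 replicate 2), Gnas at −0.09 (SE 0.054), Sgce at 0.11 (SE 0.076) and Grb10 at 0.07 (SE 0.061, and 0.03 without control replicate 2). In the higher and the lower set, Ppp1r9a was at 0.30 and 0.05, Nnat at 0.03 and −0.31, Mest at −0.14 and −0.06, Sgce at 0.07 and 0.12, and Grb10 at 0.11 and 0.02. Without control replicate 2, 5 imprinted genes separated F3 from control arrays, against 6.29% of all genes in the same setting. They were Slc22a2, Peg3, Sgce, Dlk1 and Meg3, and were singled out after their values were seen.

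Between F3 and F2 males, Snrpn alone of the 38 had arrays without overlap, a share near that of all genes. The mean of the Snrpn probe set lay at the 88.9th percentile of the negative controls. The probe set listed for Snrpn and its upstream reading frame Snurf had values of 6.51, 6.33, 6.42 and 6.38 in F3 males and 6.20, 6.09, 6.14 and 6.10 in F2 males, while controls had 6.47, 6.07, 6.15 and 6.64. All 4 F3 arrays lay above all 4 F2 arrays, and the controls were divided, with replicate 1 inside the F3 range, replicate 4 above it, replicate 3 inside the F2 range and replicate 2 just below it. The difference was 0.28 (SE 0.11, 95% interval 0.04 to 0.51), with an unadjusted p of 0.0234 and an adjusted p of 0.9999 (limma), so it did not pass the test. Limma called 0 of 38 imprinted genes and 0 of 18728 genes (0%), Snrpn alone of the 38 reached an unadjusted p under 0.05, against 444 of all genes (2.37%, of which 1.6% higher and 0.774% lower), and 1 of 38 without overlap (2.63%) compares with 2.46% of all genes (1.62% higher and 0.838% lower). The Snrpn difference lay between 0.25 and 0.31 when any single array was left out, and was 0.27 in the higher array set and 0.27 in the lower one, which holds 1 F3 array.

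Snrpn is the paternally expressed gene whose promoter carries the imprinting control region of the Prader-Willi and Angelman cluster. Imprinted methylation is protected after fertilization by the zinc finger protein ZFP57, which recognises the letters TGCCGC when methylated. Of 4 RefSeq start sites of Snrpn, the window of 1 held this motif on either strand, and that window (GRCm38.p6, chr7:60005150-60005449, minus strand) is shown with the match in capitals. TGCCGC or its reverse complement GCGGCA, each of which contains a CG pair, occurred in 13 of 54 windows of imprinted genes (24.1%) and in 11.6% of 32851 windows of all genes. The windows of imprinted genes also held more CG pairs, with a median of 14.5, against 7 in all windows. These windows matched 36 of the 47 genes, and a match describes letters and not a bound site. The shares are per window and not per gene, since a gene with several start sites counts several times. Some windows of a gene overlap, as in Mest, where the overlapping windows each held the motif.
Snrpn promoter: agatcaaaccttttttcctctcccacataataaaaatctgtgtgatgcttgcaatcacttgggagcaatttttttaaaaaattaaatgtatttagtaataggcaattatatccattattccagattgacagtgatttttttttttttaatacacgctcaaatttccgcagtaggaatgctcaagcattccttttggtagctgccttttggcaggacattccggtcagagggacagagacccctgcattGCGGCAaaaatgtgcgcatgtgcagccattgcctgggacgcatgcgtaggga

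The other differences of lowest p between F3 and F2 males were smaller and overlapped. Kcnk9 was at 0.12 (SE 0.098), Dcn at 0.13 (SE 0.11, and 0.08 without F3 replicate 1), Inpp5f at 0.12 (SE 0.11, and 0.04 without F3 replicate 4), Ascl2 at −0.13 (SE 0.12) and Slc22a2 at −0.09 (SE 0.069, and −0.05 without F3 replicate 4). Mest was at −0.09 (SE 0.074) and at −0.03 without F2 replicate 2, and Trappc9 at −0.06 (SE 0.052) and at −0.03 without F3 replicate 2. In the higher and the lower array set, Dcn was at 0.18 and −0.05, Inpp5f at −0.02 and 0.43, Ascl2 at −0.05 and −0.18, Slc22a2 at −0.06 and −0.21, and Mest at −0.02 and −0.10. After quantile normalization Slc22a2 and Trappc9 joined Snrpn in having F3 and F2 arrays without overlap (2.33% of all genes), and after centring on array medians Slc22a2 did (1.39%). Of all 38, 19 had a higher mean in F3 males (50%, against 51.4% of all genes).

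**Figure D3:**
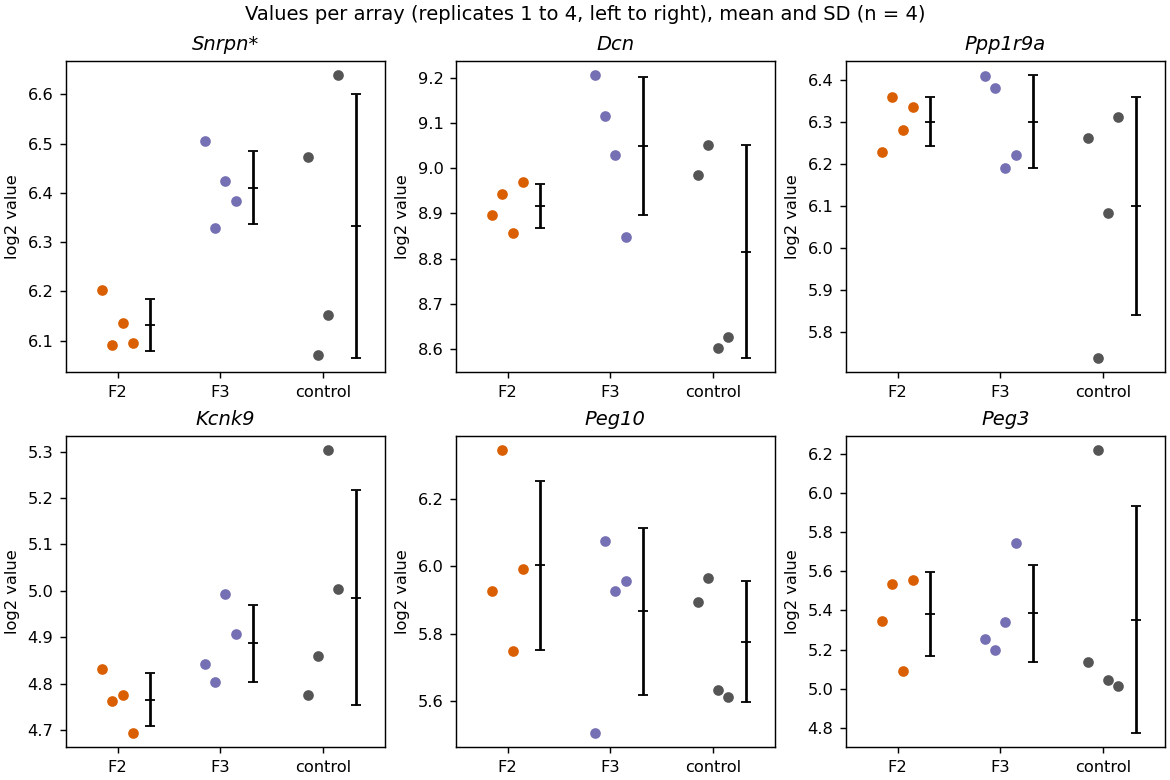
Log2 values per array (replicates 1 to 4 from left to right) of 6 imprinted genes in F2, F3 and control males, with the mean and SD of each group (n = 4) as a black bar beside the points. The 4 F3 values of Snrpn (6.33 to 6.51) lie above the 4 F2 values (6.09 to 6.20), and control replicate 2 stands alone for Peg3 (6.22) and Ppp1r9a (5.74).

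Genes of either usual allele, which was not measured in these livers, lay on both sides of 0. In F2 males against controls, 9 of 20 maternally expressed genes tested were above control (median −0.006) and 8 of 17 paternally expressed genes (median −0.007). For F3 males against controls the counts were 7 of 20 (median −0.02) and 10 of 17 (median 0.03). Higher in F3 than in F2 males were 8 of 20 (median −0.01) and 11 of 17 (median 0.01). Over all genes the shares above 0 were 43.3%, 45.3% and 51.4%, in the same order of comparisons. Gnas, which uses either allele by transcript, was left out of this count, and no test of the difference was run.

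The within-group SD, the spread between arrays of a group after removing the group means, had a median of 0.14 over the 38 imprinted genes, against 0.128 over all genes tested. It was above the median of genes in the same level class (4 classes of equal size) for 22 of 38. Peg3 had the largest SD (0.38), above 96.5% of all genes tested. Its values were 5.35, 5.54, 5.09 and 5.55 in F2 males, 5.26, 5.20, 5.34 and 5.75 in F3 males, and 5.14, 6.22, 5.05 and 5.01 in controls. Control replicate 2 lay far above every other array, and without it the SD of Peg3 was 0.20, below Kcnq1ot1 (0.24), Peg10 (0.23), Mcts2 (0.22) and Airn (0.21) on the same arrays.

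Airn (0.25), Kcnq1ot1 (0.25), Peg10 (0.23), Mcts2 (0.21) and Slc22a18 (0.21) followed Peg3 in spread over all arrays. The least variable were Commd1 (0.05), Trappc9 (0.05) and Gnas (0.05), at percentiles 1.61, 1.68 and 2.54 of all genes, and the SD of Gnas was 0.08 after centring on array medians. Peg3 and Usp29 lie head to head: their windows of 300 bases share 263 on opposite strands. The Usp29 probe set stayed under the negative control median at 2.91 to 3.08 on all arrays. The Peg3 mean was itself near background, at the 75.4th percentile of the negative controls. The Peg3 window (GRCm38.p6, chr7:6730370-6730669, minus strand), with 13 CG pairs in capitals, is shown as the promoter of the gene with the outlying control array.
Peg3 promoter: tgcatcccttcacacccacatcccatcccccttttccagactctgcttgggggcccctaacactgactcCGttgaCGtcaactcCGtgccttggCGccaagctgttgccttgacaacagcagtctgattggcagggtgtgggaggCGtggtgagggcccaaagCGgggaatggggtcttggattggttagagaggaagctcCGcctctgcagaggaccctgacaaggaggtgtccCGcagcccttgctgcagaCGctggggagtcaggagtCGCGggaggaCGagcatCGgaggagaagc

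**Figure D4:**
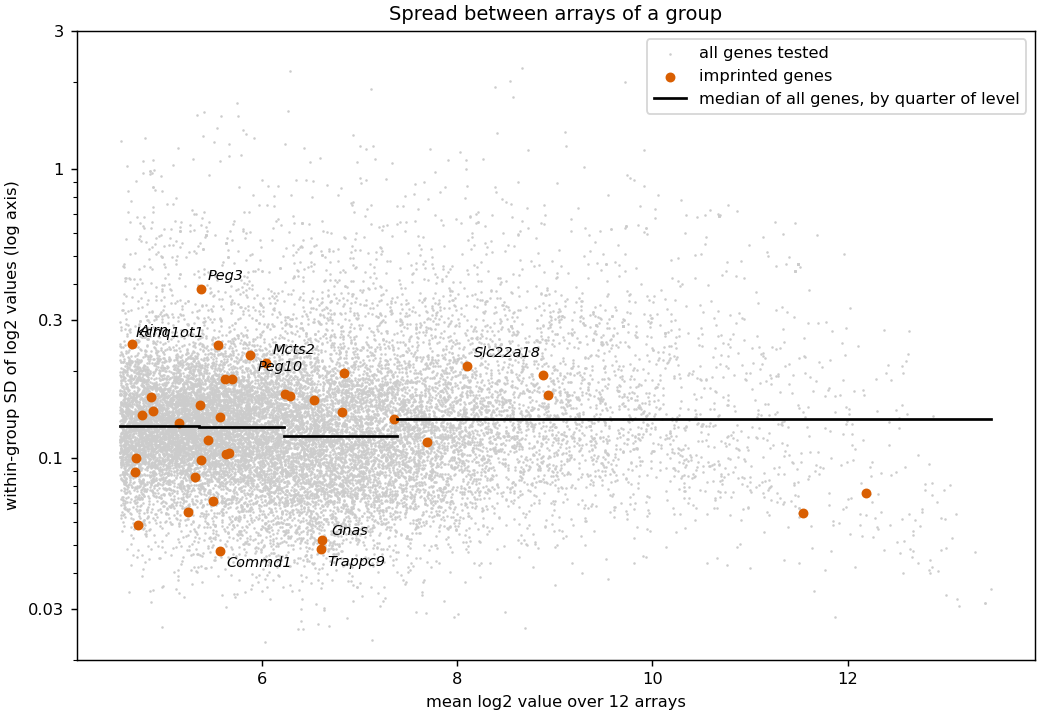
Within-group SD of log2 values (vertical log axis) against mean log2 value over 12 arrays for 18728 genes tested (grey) and 38 imprinted genes (orange), with the median of all genes in each of 4 level classes as black lines. Over all arrays Peg3 at 0.38 stands highest among the imprinted genes (0.20 without control replicate 2) and Commd1, Trappc9 and Gnas lowest.

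The dim imprinted genes had their extremes on the same arrays as other dim genes. Of the 35 imprinted genes under the 90th percentile of the negative controls, 15 had their highest value on control replicate 3 (42.9%), against 39.1% of 21457 other genes under that level. On control replicate 2, 11 of the 35 had their lowest value (31.4%), against 24.9% of the others. The mean of the 35 was 5.03 on control replicate 3 and 4.87 on control replicate 2, while that of the negative control probe sets was lowest on control replicate 3 (4.15) and highest on control replicate 2 (4.42). The mean of the 35 lay between 4.86 and 4.98 on the F2 arrays and between 4.87 and 4.96 on the F3 arrays. The part of this array pattern in the differences of dim genes from control was not tested.

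**Figure D5:**
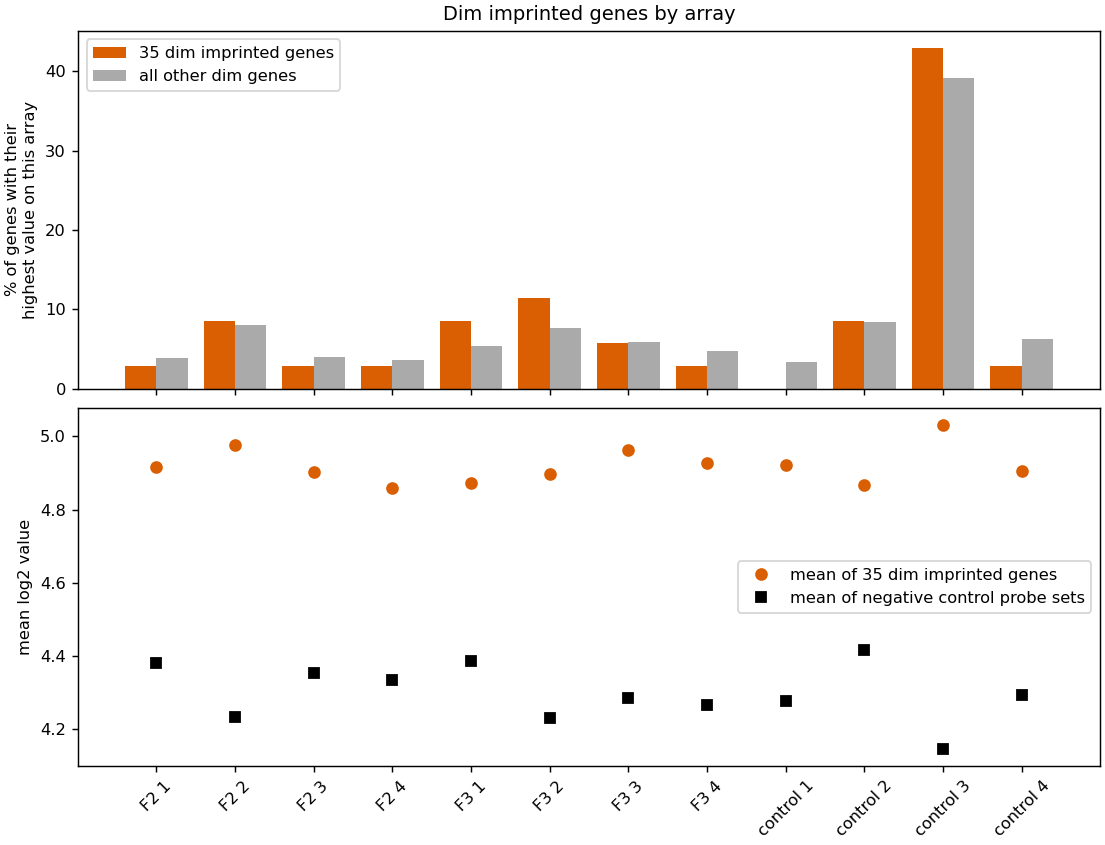
Upper panel, percent of 35 dim imprinted genes (orange) and of all other dim genes (grey) whose highest value fell on each array. Lower panel, mean log2 value of the 35 dim imprinted genes and of the negative control probe sets on each array. Control replicate 3 holds the highest values of 42.9% and 39.1% of the genes.

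Genes that set, protect or read imprints were measured beside them. Of 26 imprinting regulators 23 were tested, and 0 were called in any comparison. Of the 23, 13 lay above control in F2 males, 9 above control in F3 males and 9 higher in F3 than in F2 males. Over all genes these shares were 43.3%, 45.3% and 51.4%. The medians were 0.02 for F2 minus control and −0.01 for F3 minus control, against −0.01 in each over all genes. The lowest p values in F2 males belonged to the Polycomb methyltransferase gene Ezh2 (0.09, SE 0.055), the methylcytosine oxidase gene Tet3 (0.10, SE 0.068) and Trim28, the corepressor recruited by ZFP57 (−0.07, SE 0.058). In F3 males they belonged to Trim28 (−0.15, SE 0.058, unadjusted p = 0.0199, adjusted p = 0.9998 by limma), the imprint-protecting zinc finger gene Zfp445 (0.19, SE 0.13) and the histone demethylase gene Kdm1b (−0.09, SE 0.064). Between F3 and F2 males, Tet3 was at −0.11 (SE 0.068), Trim28 at −0.08 (SE 0.058) and the histone methyltransferase gene Ehmt1 at −0.11 (SE 0.078). Single arrays moved several of these: in F2 males Tet3 was at 0.05 without F2 replicate 4 and Trim28 at −0.05 without control replicate 2, and in F3 males Kdm1b was at −0.06 without F3 replicate 2. Between F3 and F2 males, Tet3 was at −0.06 without F2 replicate 4, Trim28 at −0.05 without F3 replicate 1 and Ehmt1 at −0.06 without F2 replicate 1. The Ezh2 probe set lay at the 77.4th percentile of the negative controls.

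A second list of 36 imprinted genes had 25 tested and 0 called. Of these, 8 lay above control in F2 males, 12 above control in F3 males and 16 higher in F3 than in F2 males. The shares over all genes were 43.3%, 45.3% and 51.4%. Medians were −0.03 for F2 minus control and −0.01 for F3 minus control, against −0.01 in each over all genes. Ddc, which encodes a decarboxylase of amine synthesis, averaged 8.04 in F3 males and 7.54 in F2 males, a difference of 0.50 (SE 0.18, unadjusted p = 0.0177, adjusted p = 0.9999 by limma), and was −0.28 for F2 minus control (SE 0.18). The sterol reductase gene Dhcr7 was at −0.39 (SE 0.24) and Casd1 at 0.10 (SE 0.064) in F2 males, and Qpct at −0.21 (SE 0.12), Gab1 at −0.13 (SE 0.10) and Casd1 at 0.07 (SE 0.064) in F3 males, each against control. Between F3 and F2 males Qpct was at −0.18 (SE 0.12), the 1 gene of 25 without overlap, against 2.46% of all genes. Ano1, with its probe set at the 83.1th percentile of the negative controls, was at 0.08 between F3 and F2 males (SE 0.071). Without control replicate 2, Dhcr7 in F2 males was at −0.15 and Qpct in F3 males at −0.07. Casd1 was at 0.06 in F2 males and at 0.03 in F3 males without control replicate 3, Gab1 at −0.04 without F3 replicate 3, and Ano1 at 0.03 without F2 replicate 1.

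Of 16 genes tested of the IGF and insulin growth axis, in which Igf2, Igf2r and Grb10 act, 0 were called. Above control lay 9 in F2 males and 9 in F3 males, and 7 were higher in F3 than in F2 males. The same shares over all genes were 43.3%, 45.3% and 51.4%. Igfbp2, an IGF-binding protein gene, had the lowest p in F3 males at −0.47 (SE 0.15, unadjusted p = 0.00978, adjusted p = 0.9998 by limma), and was −0.24 in F2 males (SE 0.15) and −0.23 between F3 and F2 males (SE 0.15). Igf1, the growth hormone-dependent growth factor gene of the liver, was at 0.32 in F2 males (SE 0.12) and at 0.26 in F3 males (SE 0.12), against the same controls. For F2 minus control Igf1 was the 1 gene of 16 without overlap, against 0.705% of all genes. Gh, with its probe set at the 77.1th percentile of the negative controls, was at 0.13 in F2 males (SE 0.083). Between F3 and F2 males Gh was at −0.11 (SE 0.083), the 1 gene of 16 without overlap, against 2.46% of all genes. Stat5b was at −0.11 in F3 males (SE 0.068) and Igfbp4 at −0.07 between F3 and F2 males (SE 0.064). Without control replicate 2, Igf1 was at 0.18 in F2 males and 0.12 in F3 males, and Gh at 0.06 in F2 males. Igfbp2 was at −0.15 in F2 males without control replicate 3 and at −0.09 between F3 and F2 males without F3 replicate 4. Stat5b was at −0.07 without control replicate 3, and Igfbp4 at −0.04 without F3 replicate 3.

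Of 9 fetal liver genes 7 had a probe set and 2 passed the filter, Hmga2 and Mdk, with F3 minus control at −0.10 (SE 0.073) and −0.10 (SE 0.11), F2 minus control at −0.05 (SE 0.073) and −0.03 (SE 0.11), and F3 minus F2 at −0.05 (SE 0.073) and −0.06 (SE 0.11). Zhx2, a repressor of H19 and other fetal genes in adult mouse liver, was at −0.008 in F2 males (SE 0.091), at −0.07 in F3 males (SE 0.091) and at −0.07 between F3 and F2 males (SE 0.091). None of these passed the test, and each value moved by over 1.5 times when a single array was left out. For F3 minus control the range was −0.16 to −0.05 for Hmga2, −0.20 to 0.0007 for Mdk and −0.12 to −0.01 for Zhx2. The probe sets of Hmga2 and Mdk lay at the 71.5th and the 84.7th percentile of the negative controls.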

How the data were processed

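The authors deposited 1 log2 value per probe set and array. The submitters' processing notes name Affymetrix Expression Console, and its version, normalization and background correction are not stated in these sources. RNA was extracted with Trizol and 100 ng was labelled per array, per the labels' protocols. Medians per array lay between 4.49 and 4.60, and the number of arrays limits the precision. Of the probe sets annotated, 30604 had 1 symbol and 2146 several; genes were named from the former, plus 6 imprinted genes whose probe set lists further symbols, with symbols updated through a RefSeq table of GRCm38.p6. The annotation can be old. The brightest probe set stood for a gene.

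All 12 arrays were fitted with limma 3.58.1 in R 4.3.3 (9 residual degrees of freedom, no covariate), with Benjamini-Hochberg adjustment over 18728 genes with a mean above 4.55 and a threshold of 0.05; 57% of negative controls lay under that filter. The fit was tested on simulated data. Per comparison, the 8 tested imprinted genes of lowest p, those without overlap and the largest difference were named, and 3 genes of each other list; 6 genes of largest and 3 of smallest SD were named, and the brightest and dimmest marker of a list where that list is described. The labels do not say that replicate numbers pair the arrays. Deviations of same-numbered arrays correlated between −0.51 and 0.32, with 3 of 12 pairs over 0.1, against 19 of 36 differently numbered pairs. These correlations cannot settle whether arrays were paired. The imprinted genes and all lists were chosen with earlier results of these data known. Alternatives were quantile normalization, median centring, other filters, the mean over probe sets, other variance models, array weights, blocks and left-out arrays.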

Additional observations from a re-analysis of the deposited data

Results flagged for a closer look

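Of 114 groups of 4 arrays (38 imprinted genes in 3 groups), 5 held an array set apart by a gap of over 0.829 of the group's range, where chance flags about 1 in 20. They were Peg3 in control replicate 2 (6.22, the other controls 5.01 to 5.14), Magel2 in control replicate 2 (4.43, the others 4.79 to 4.85), Inpp5f in control replicate 2 (6.77, the others 6.41 to 6.45), Igf2 in F2 replicate 4 (5.004, the others 5.16 to 5.20) and Dlk1 in F3 replicate 1 (5.49, the others 5.57 in each case). Control replicate 2 accounts for 3 of the 5. Both the Igf2 and the Dlk1 value differ from their groups by under 0.2 on the log2 scale.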

How the results depend on the processing

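The count of genes called by limma was 0 in all 3 comparisons under every setting run, including the replicate block (0, 0 and 0) and each array left out in turn (0 to 0), except within the lower array set, where 2 genes were called for F3 minus control and 3 for F3 minus F2, none of them among the imprinted genes tested; that set holds 1 F3 array. At an unadjusted p under 0.05 the replicate block gave 140, 409 and 342 genes, and it changed no call. The number of imprinted genes above the negative control level, 7 at the 95th percentile, was 12 at the 90th and 2 at the 99th, and, in settings added after seeing the data, 28 at the 75th and 39 at the median, as a lower limit admits more genes by construction. When single arrays were left out, imprinted genes without overlap numbered 0 to 1 for F2 minus control, 0 to 5 for F3 minus control and 1 to 3 for F3 minus F2. The share of all genes without overlap also rose in these settings, to at most 3.45%, 6.29% and 7.12%. Leaving out an array cannot make separate groups overlap, so Snrpn stayed among them in F3 minus F2 by construction. Array weights gave −0.37 for Snrpn and 0.05 for Ppp1r9a in F2 minus control and −0.05 for Gnas in F3 minus control. Signs turned for Nnat in F2 minus control within the higher array set (0.069) and without control replicate 3 (range over left-out arrays −0.20 to 0.0084), for Nnat in F3 minus control within the higher set (0.034), for Inpp5f in F3 minus F2 within the higher set (−0.025), for Dcn in F3 minus F2 within the lower set (−0.053), and for Airn in F2 minus control without control replicate 2 and F2 replicate 2 (0.0041). In left-out arrays added after seeing the data, the ranges that crossed 0 were −0.14 to 0.063 for Mdk in F2 minus control, −0.20 to 0.0007 for Mdk in F3 minus control, and −0.060 to 0.040 for Zhx2 in F2 minus control; the cause of these changes was not tested.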
